A study of Mus musculus with 12 samples.

Results

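The genes described here encode the proteins of the mitochondrial ribosome. Members were selected on the gene symbol in the platform's annotation table, Mrpl or Mrps followed by digits, and 1 probe set per gene was chosen by the highest mean signal over all 12 arrays. This gave 77 genes, 48 with an Mrpl and 29 with an Mrps symbol, of 19945 genes tested. RefSeq (assembly GRCm38.p6) lists 78 protein-coding mouse genes of this name, and the remaining one, Mrpl53, lies in a probe set shared by several genes and was not analysed here. The mean signal that chose among probe sets treats the groups alike, so levels are given as a description. No member was left out for low signal, and all 77 lay above the median signal of the genes tested.

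RNA came from mouse bone marrow-derived macrophages of the C57BL/6 strain on day 7 of differentiation in L929-conditioned medium, which supplies CSF1. The 4 groups of 3 arrays were Hdac3 +/- cells untreated, Hdac3 +/- cells given lipopolysaccharide (LPS, an outer membrane lipid of bacteria that TLR4 detects) at 100 ng/ml for 4 h, and Hdac3 -/- cells under the same 2 conditions. Hdac3 encodes a histone deacetylase that acts within the NCoR and SMRT corepressor complexes. The Hdac3 +/- cells, which the labels call wild type, carry 1 changed Hdac3 allele themselves, so every comparison is with cells that keep 1 copy, and neither the way of deletion nor the deleted exons are named in the labels.

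Mitochondrial ribosomes translate the few proteins encoded in mitochondrial DNA, all of them parts of the respiratory chain and the ATP synthase. The ribosomal RNAs come from mitochondrial DNA, whereas all the proteins are encoded in the nucleus, made in the cytosol and imported. Many have a counterpart in bacterial ribosomes and others are found in mitochondria alone. The large subunit joins amino acids and the small subunit reads the messenger RNA. Macrophages given LPS are known to turn from respiration towards glycolysis.

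Signals are on the log2 scale of the authors' normalized values, differences are log2 differences ± 1 SE of a limma model of all 12 arrays (n = 3 arrays per group), and a gene was counted as changed at a Benjamini-Hochberg adjusted p under 0.05 over 19945 genes. The Hdac3 probe set gave 8.66 to 9.42 in the 6 Hdac3 +/- arrays and 6.91 to 7.52 in the 6 Hdac3 -/- arrays, without overlap. The signal thus split the arrays as the genotype labels do. The labels do not say whether this probe set lies within the deletion, so the signal does not show how much intact transcript remained. The mean of 8 macrophage markers was 11.1 to 11.7 on all arrays. After LPS it was 11.34 to 11.52 in Hdac3 +/- and 11.09 to 11.26 in Hdac3 -/- arrays. Fcgr1 was the 1 marker changed between the genotypes, lower in Hdac3 -/- cells untreated (-1.45) and after LPS (-2.41). The means of 6 marker lists of other lineages (neutrophil, B cell, T and NK cell, mast cell, dendritic cell, fibroblast and endothelium) and of the 1 erythroid marker measured lay between 3.14 and 5.74. Xist and 3 Y-linked genes split the arrays: replicate 1 of both Hdac3 +/- groups gave Xist signals of 3.93 and 3.20 and Eif2s3y signals of 7.76 and 7.93, as male cells do, and the other 10 arrays gave 9.67 to 10.97 and 2.20 to 2.47. Each main result is therefore also given without these male arrays. The interquartile range of the array was 3.19 and 3.20 in +/- LPS arrays 2 and 3 and 3.39 to 3.80 in the other 10. In bulk RNA, fewer cells of a type and less RNA per cell cannot be told apart. The labels do not say that replicates came from separate animals, so p-values measure the spread between these arrays, whose number limits the precision.

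The clearest difference lay between the genotypes after LPS. In LPS-treated Hdac3 -/- macrophages 29 of the 77 mitochondrial ribosomal protein genes were higher than in LPS-treated Hdac3 +/- macrophages and 0 were lower, where 9.69% of all genes were higher and 5.99% lower. Among them were Mrps18b, with a difference of 1.43, and Mrpl36, with 1.13. In untreated cells 1 gene, Mrpl36, differed and was higher (1.30% of members, against 1.22% of all genes). LPS lowered 14 members (18.2%) in Hdac3 +/- cells, against 15.5% of all genes and 28.3% of those above the median signal. It raised 2 (2.60%, against 9.59% of all genes). In Hdac3 -/- cells LPS raised 2 members and lowered 0, where 3.69% of all genes rose and 5.18% fell. The test of the difference between the 2 LPS responses passed for 0 members. Mrpl39 and Mrpl52 rose in both genotypes.

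Promoters of the 4 members with the largest difference after LPS are shown because these genes lead the genotype difference and because regulators of mitochondrial genes are known to bind short motifs near such start sites. Each is the 250 bases before the RefSeq start on GRCm38.p6, 5′ to 3′ along the gene. The regions are chr17:35916441-35916690 on the minus strand for Mrps18b, chr4:155802628-155802877 on the plus strand for Mrpl20, chr11:97315466-97315715 on the plus strand for Mrpl45 and chr13:73330759-73331008 on the plus strand for Mrpl36. Capitals mark matches on either strand to GCGCATGC (core of the NRF1 site), CCGGAAG (ETS site, as bound by GABPA), AAGATGGCG (YY1) or CACGTG (E-box, as bound by MYC).
Mrps18b: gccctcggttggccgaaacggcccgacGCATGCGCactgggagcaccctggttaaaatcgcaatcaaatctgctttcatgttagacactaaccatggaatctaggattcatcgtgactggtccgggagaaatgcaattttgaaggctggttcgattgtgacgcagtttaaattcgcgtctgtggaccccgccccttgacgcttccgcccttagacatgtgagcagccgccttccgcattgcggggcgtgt
Mrpl20: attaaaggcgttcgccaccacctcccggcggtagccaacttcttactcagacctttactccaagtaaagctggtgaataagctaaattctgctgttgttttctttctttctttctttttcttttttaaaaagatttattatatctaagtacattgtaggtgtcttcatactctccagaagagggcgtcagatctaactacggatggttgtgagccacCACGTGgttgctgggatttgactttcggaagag
Mrpl45: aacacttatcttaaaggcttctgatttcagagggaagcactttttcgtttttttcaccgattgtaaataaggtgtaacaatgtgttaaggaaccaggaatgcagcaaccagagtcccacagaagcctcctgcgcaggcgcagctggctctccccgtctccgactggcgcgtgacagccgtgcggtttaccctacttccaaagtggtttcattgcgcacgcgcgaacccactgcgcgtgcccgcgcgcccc
Mrpl36: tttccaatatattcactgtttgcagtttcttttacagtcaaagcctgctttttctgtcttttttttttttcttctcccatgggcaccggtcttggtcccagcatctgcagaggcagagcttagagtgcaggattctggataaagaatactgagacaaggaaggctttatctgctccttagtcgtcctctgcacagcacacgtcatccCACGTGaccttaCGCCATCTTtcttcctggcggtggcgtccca
Mrps18b held the NRF1 core at position -223, on the reverse strand, counted from the start site. Mrpl20 held an E-box at -33. Mrpl36 held an E-box at -43 and the YY1 motif at -31, on the reverse strand. The Mrpl45 window held no exact match to the 4 strings. It holds gcgcacgc, which is close to the NRF1 core but was not searched for.

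The same search for exact matches, without variants of the sites, covered windows from 250 bases before to 50 after the start. The RefSeq table held 74 such windows for 68 members and 32851 for all genes. CCGGAAG was in 33.8% of the members' windows and 8.86% of all windows. The NRF1 core was in 10.8% against 2.71%, the YY1 motif in 10.8% against 1.40%, and the E-box in 9.46% against 7.15%. Among members, CCGGAAG was in 33.3% of windows of genes higher in LPS-treated Hdac3 -/- cells and in 34.0% of the others. The E-box was in 5 of 27 windows of the former (18.5%) and 2 of 47 of the latter (4.26%). These are counts of letters, given with no test. The windows of all genes were not limited to genes above the median signal, where all members lie.

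The median of the 77 members was taken on each array. It was 7.79, 7.76 and 7.68 in Hdac3 +/- arrays untreated and 7.63, 7.40 and 7.28 after LPS. In Hdac3 -/- arrays it was 8.03, 7.93 and 7.96 untreated and 7.94, 7.68 and 8.11 after LPS. Every LPS-treated Hdac3 +/- array was thus below every untreated one of its genotype and below all 3 LPS-treated Hdac3 -/- arrays. The means over 3 arrays were 7.74 ± 0.0556 and 7.44 ± 0.177 in Hdac3 +/- cells and 7.97 ± 0.0522 and 7.91 ± 0.217 in Hdac3 -/- cells (SD, untreated then LPS). The median over all genes above the median signal also fell in Hdac3 +/- arrays, from 7.70, 7.62 and 7.73 to 7.55, 7.38 and 7.37. In Hdac3 -/- arrays that median was 7.71, 7.68 and 7.65 untreated and 7.60, 7.50 and 7.68 after LPS. There +/- LPS 1 was above -/- LPS 2, unlike in the member medians. Among LPS-treated arrays the 2 with the narrowest interquartile range, +/- LPS 2 and 3, had the lowest member medians, and -/- LPS 3, with the widest (3.70), had the highest. Over all 12 arrays the order differed: +/- untreated 3 had the widest range (3.80) and a member median of 7.68, the lowest outside the +/- LPS group. +/- untreated 1 had a range of 3.70 and a median of 7.79, against 8.11 in -/- LPS 3.

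**Figure D1:**
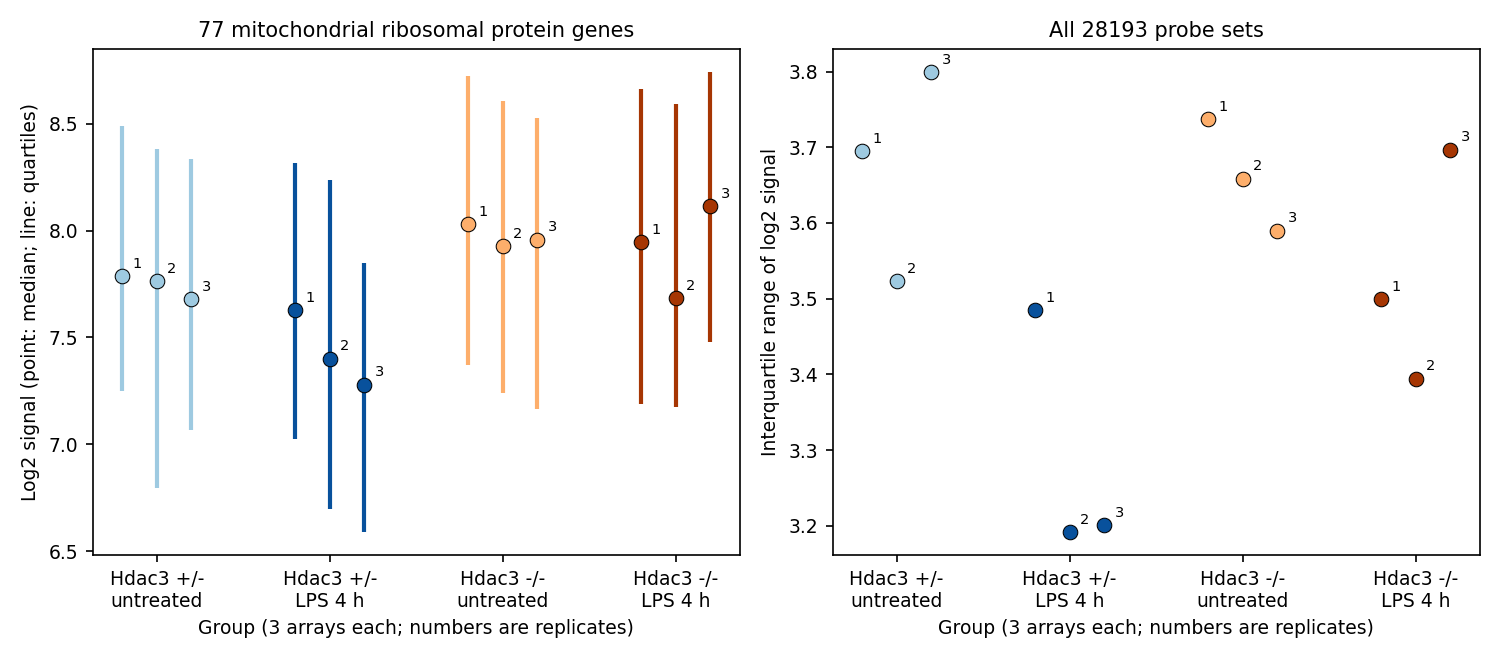
Left, the median log2 signal of the 77 genes on each array (points, with lines from the lower to the upper quartile), by group. Right, the interquartile range of all 28193 probe sets on the same arrays. The member medians of LPS-treated Hdac3 +/- arrays (7.28 to 7.63) lie below those of the other 9 arrays (7.68 to 8.11), and arrays 2 and 3 of that group have the narrowest ranges (3.19 and 3.20).

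The first comparison asked which members differ by genotype after LPS. The 29 genes that were higher in Hdac3 -/- cells make up 37.7% of the members, against 9.69% of all genes and 17.7% of the genes above the median signal, the class to which every member belongs. Of that class 9.20% were lower. Their differences ran from 0.46 to 1.43, which is 1.38-fold to 2.70-fold, with adjusted p from 0.000187 to 0.0458. The groups did not overlap in 28 of the 29, the exception being Mrps34. Over all 77 members the median difference was 0.48, and 74 were positive. The median was -0.04 over all genes and 0.15 over the genes above the median signal. In 44 members every Hdac3 -/- array was above every Hdac3 +/- array, and in 0 members it was the reverse. These are 57.1% and 0% of the members, against 17.3% and 14.5% of all genes and 30.5% and 14.7% of those above the median signal.

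The size of this difference depended on single arrays and on scaling, and its direction did not in any alternative run. Without +/- LPS 3 there were 10 higher members, 13.0% of them, against 4.93% of all genes in that fit. Without -/- LPS 3 there were 7 (9.09% against 4.56%). Leaving out +/- LPS 2 gave 19 (24.7% against 7.58%) and leaving out -/- LPS 1 gave 17 (22.1% against 5.87%). The median was 0.37 to 0.58 whichever array was left out. With +/- LPS 2 and 3 both left out, only the male array was left in that group, and the median was 0.33. With all arrays scaled to the same interquartile range, 17 members were higher (22.1% against 6.39%) and the median was 0.33. Without both male arrays, 35 were higher (45.5% against 11%) and the median was 0.56. Of the 29 members 7 passed whichever of the 12 arrays was left out: Mrps18b, Mrpl45, Mrpl36, Mrps31, Mrpl34, Mrps18a and Mrps7.

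Among large subunit proteins with a bacterial counterpart, 11 of 29 (37.9%) were higher in LPS-treated Hdac3 -/- cells (median 0.51). Of all genes 9.69% were higher (median -0.04), and of those above the median signal 17.7% (median 0.15). Mrpl36 encodes bL36m, a small protein of the large subunit. Its signals were 7.91, 7.80 and 7.52 in Hdac3 +/- and 8.85, 8.66 and 9.09 in Hdac3 -/- cells given LPS. The lowest Hdac3 -/- array was above the highest Hdac3 +/- array, and the difference was 1.13 ± 0.148 (limma, adjusted p = 0.000187). Mrpl36 was also the 1 member higher in untreated Hdac3 -/- cells, with signals of 8.30, 8.14 and 8.0 against 8.87, 8.79 and 8.82 and a difference of 0.68 ± 0.148 (adjusted p = 0.0233). That untreated call was lost without any 1 of 5 of the 6 untreated arrays (all but +/- untreated 1), with adjusted p of 0.0541 to 0.117, whereas the call after LPS held in all 26 alternatives run.

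Mrpl34, another short protein of the large subunit (bL34m), gave 6.73, 7.38 and 6.59 in Hdac3 +/- and 7.80, 7.58 and 8.11 in Hdac3 -/- cells after LPS. The groups did not overlap, although +/- LPS 2 came close to the Hdac3 -/- arrays. The difference was 0.93 ± 0.207 (limma, adjusted p = 0.00782) and passed in all 26 alternatives. Mrpl20 (bL20m, a protein that binds ribosomal RNA during assembly) varied more among replicates. Its signals after LPS were 7.50, 6.20 and 6.93 in Hdac3 +/- and 8.27, 8.08 and 8.31 in Hdac3 -/- cells. The untreated Hdac3 +/- arrays of this gene spread from 6.48 to 8.07. The difference after LPS was 1.34 ± 0.369 (adjusted p = 0.0249) and passed in 20 of 26 alternatives. It was lost without +/- LPS 2 (1.00), +/- LPS 3 (1.37), -/- LPS 1 (1.32) or -/- LPS 3 (1.30).

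Mrpl12, which encodes the stalk protein bL12m and is also known to bind the mitochondrial RNA polymerase, gave 7.26, 7.70 and 7.37 against 8.02, 7.97 and 8.08, a difference of 0.58 ± 0.166 (limma, adjusted p = 0.0306). The call was lost without any 1 of 5 arrays, +/- LPS 1 or 3 or any -/- LPS array (adjusted p of at most 0.108). The other 7 higher members of this class were Mrpl2, Mrpl15, Mrpl17, Mrpl23, Mrpl32, Mrpl35 and Mrpl47, with differences of 0.53 to 0.78. Mrpl47 has a second, dimmer probe set on the array, which gave -0.22. The mean signal of that probe set was 4.62, below the median of all probe sets on every array (5.19 to 5.37). A second probe set of Mrpl23, with a mean signal of 8.76, gave 0.56. By its number it lies among genes of chromosome 2, whereas Mrpl23 lies on chromosome 7.

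Of the 21 large subunit proteins listed as found in mitochondria alone, 8 (38.1%) were higher after LPS in Hdac3 -/- cells (median 0.56). Of all genes 9.69% were higher, and of those above the median signal 17.7%. Mrps18a, a relative of bacterial bS18, is counted in this list. Mrpl45 encodes mL45, which sits at the exit of the peptide tunnel and is known to anchor the ribosome to the inner membrane. Its signals were 8.53, 7.99 and 7.82 in Hdac3 +/- and 9.20, 9.27 and 9.51 in Hdac3 -/- cells given LPS. All 3 Hdac3 -/- arrays were higher, by 1.21 ± 0.206 (limma, adjusted p = 0.00133). In untreated cells the same gene gave 8.35, 8.69 and 8.47 against 9.0, 8.47 and 9.15, and the groups overlapped.

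Mrpl51 (mL51) gave 8.59, 8.13 and 7.79 in Hdac3 +/- and 9.0, 8.88 and 9.39 in Hdac3 -/- cells after LPS. The difference was 0.92 ± 0.207 (limma, adjusted p = 0.00823) with the groups apart. A second probe set of Mrpl51 gave 0.47, which did not pass (adjusted p = 0.185), and the first just missed without -/- LPS 3 (adjusted p = 0.0510). By its number the first probe set lies among genes of chromosome 2. The second lies among genes of chromosome 6, where Mrpl51 itself lies. Which transcripts the first measures was not tested. Mrpl38 (mL38) gave 8.15, 7.37 and 7.38 against 8.46, 8.25 and 8.74. +/- LPS 1 stood close to the Hdac3 -/- arrays, and the difference was 0.85 ± 0.209 (adjusted p = 0.0138), lost without +/- LPS 2, +/- LPS 3 or -/- LPS 3 (0.72 each). Mrpl49 (mL49) gave 7.35, 6.75 and 7.29 against 7.94, 7.62 and 8.35, with no overlap and a difference of 0.84 ± 0.196 (adjusted p = 0.0104), lost without -/- LPS 3 (adjusted p = 0.0603). Mrps18a, which despite its symbol is a large subunit protein (mL66), gave 8.17, 8.24 and 7.90 against 8.63, 8.78 and 8.92, a difference of 0.68 ± 0.147 (adjusted p = 0.00659). Mrps30, likewise a large subunit protein (mL65), had a difference of 0.27 and did not pass. Mrpl40, Mrpl43 and Mrpl57 were the other higher members of the class.

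In the small subunit, 5 of 16 proteins listed with a bacterial counterpart were higher (31.25%, median 0.28). Of 10 listed as found in mitochondria alone 5 were higher (50%, median 0.56). Of all genes 9.69% were higher, and of those above the median signal 17.7%. The 3 members Mrps18b (mS40), Mrps18a and Mrps18c are related to bacterial bS18. The lists used here nevertheless placed Mrps18b and Mrps18a among proteins found in mitochondria alone, and Mrps18c among those with a bacterial counterpart. Mrps18b had the largest difference of all. Its signals after LPS were 9.13, 8.36 and 8.29 in Hdac3 +/- and 10.04, 9.69 and 10.37 in Hdac3 -/- cells. The groups did not overlap, and the difference was 1.43 ± 0.230 (limma, adjusted p = 0.000884), lost in 1 of 26 alternatives. That alternative, without +/- LPS 2 and 3, left only the male array in the group and gave 0.90. Untreated signals were 9.10, 8.91 and 8.60 against 9.88, 9.86 and 9.57, also apart, with a difference of 0.90 ± 0.230 that missed the threshold (adjusted p = 0.0578). Without both male arrays this untreated difference was 1.01 and passed (adjusted p = 0.0239).

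The relatives of Mrps18b differed from it in their values. Mrps18c (bS18m) gave 10.04, 10.05 and 9.64 against 10.01, 10.06 and 10.26 after LPS, overlapping, with a difference of 0.20 (limma, adjusted p = 0.408). Mrps18a, given above, lay between them with 0.68. These 3 differences were not tested against each other.

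Mrps31 (mS31), a protein of the small subunit head, gave 6.28, 5.95 and 5.89 in Hdac3 +/- and 6.99, 7.06 and 7.24 in Hdac3 -/- cells after LPS. The groups were far apart, by 1.06 ± 0.149 (limma, adjusted p = 0.000327), and the call held in all 26 alternatives. Mrps26 (mS26) gave 7.63, 7.40 and 7.37 against 8.28, 7.86 and 8.70, a difference of 0.81 ± 0.216 (adjusted p = 0.0207), lost without any 1 of +/- LPS 2 and 3 and -/- LPS 1 and 3 (0.60 to 0.81). Mrps34 and Mrps35 were the other 2 higher members listed as found in mitochondria alone. Mrps2, Mrps7, Mrps14, Mrps15 and Mrps21 were the 5 with a bacterial counterpart, at 0.46 to 0.76.

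The 48 members that did not pass had differences of -0.14 to 1.01. The upper end was Mrpl42, whose signals of 5.38, 4.87 and 4.64 against 5.94, 5.70 and 6.28 did not overlap but whose SE of 0.336 was large (adjusted p = 0.0583). Mrpl58, Mrpl44 and Mrpl22 lay just outside the threshold as well, with adjusted p of 0.0519, 0.0565 and 0.0580. The 3 negative members were Mrps33, Mrps10 and Mrpl48, at -0.06, -0.10 and -0.14. Mrps36, whose product is now known as a subunit of the 2-oxoglutarate dehydrogenase complex and not of the ribosome, gave 7.14, 7.44 and 6.93 against 7.53, 7.54 and 7.85, a difference of 0.47 that did not pass (adjusted p = 0.0792).

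**Figure D2:**
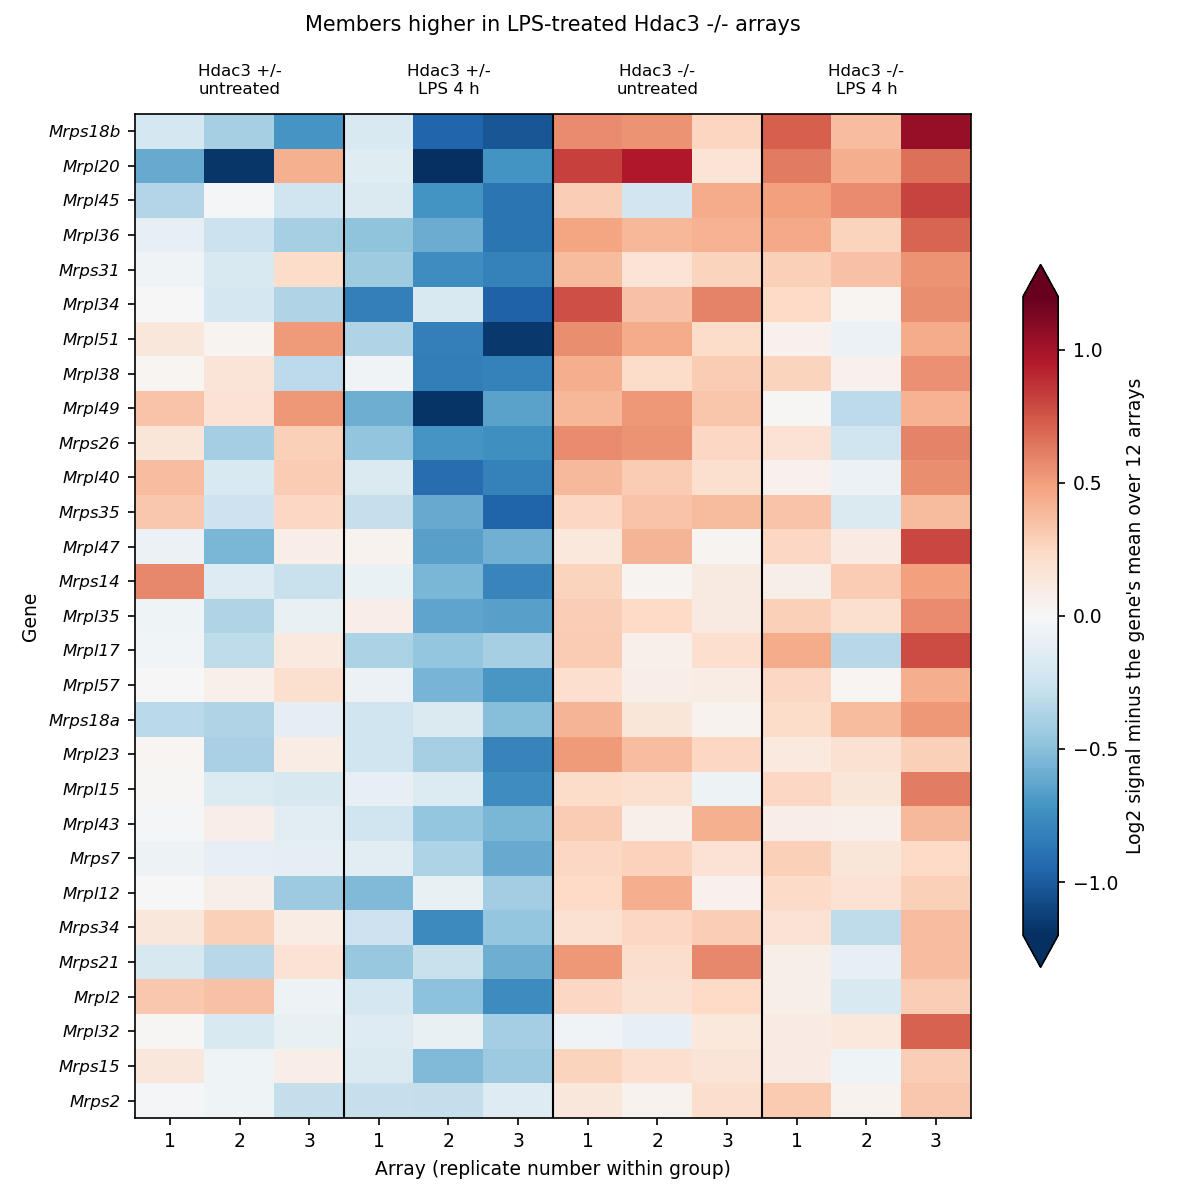
The 29 genes higher in LPS-treated Hdac3 -/- cells (rows, ordered by that difference) on the 12 arrays (columns, by group and replicate number), coloured by log2 signal minus the gene's mean over all arrays. Values beyond the colour scale take its end colours. The LPS-treated Hdac3 +/- arrays hold most of the low values, array 1 less so than arrays 2 and 3, and -/- LPS 3 holds the highest values of Mrps18b (10.37) and Mrpl45 (9.51).

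Before LPS, 1 member was higher and 0 were lower in Hdac3 -/- cells, against 1.22% higher and 1.44% lower over all genes. At an unadjusted p under 0.05, limma gave 12 higher and 1 lower (15.6% and 1.30% of the members), against 6.85% and 5.86% of all genes and 11.1% and 9.48% of those above the median signal. The members' median difference was 0.19, against 0.01 over all genes and 0.03 over genes above the median signal, and 62 of 77 were positive. The groups did not overlap in 22 higher and 1 lower member, against 9.64% and 8.35% of all genes. Beside Mrpl36, the members with the smallest p were Mrps18b, Mrpl34 and Mrps21. Mrpl34 gave 7.55, 7.34 and 7.19 in Hdac3 +/- and 8.33, 7.91 and 8.15 in Hdac3 -/- cells, a difference of 0.77 ± 0.207 (adjusted p = 0.0733). Mrps21 (bS21m) gave 9.14, 9.0 and 9.50 against 9.86, 9.54 and 9.91, a difference of 0.56 ± 0.172 (adjusted p = 0.129). In both genes the groups did not overlap. Without both male arrays the higher members were Mrpl36 and Mrps18b, and the median was 0.25.

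**Figure D3:**
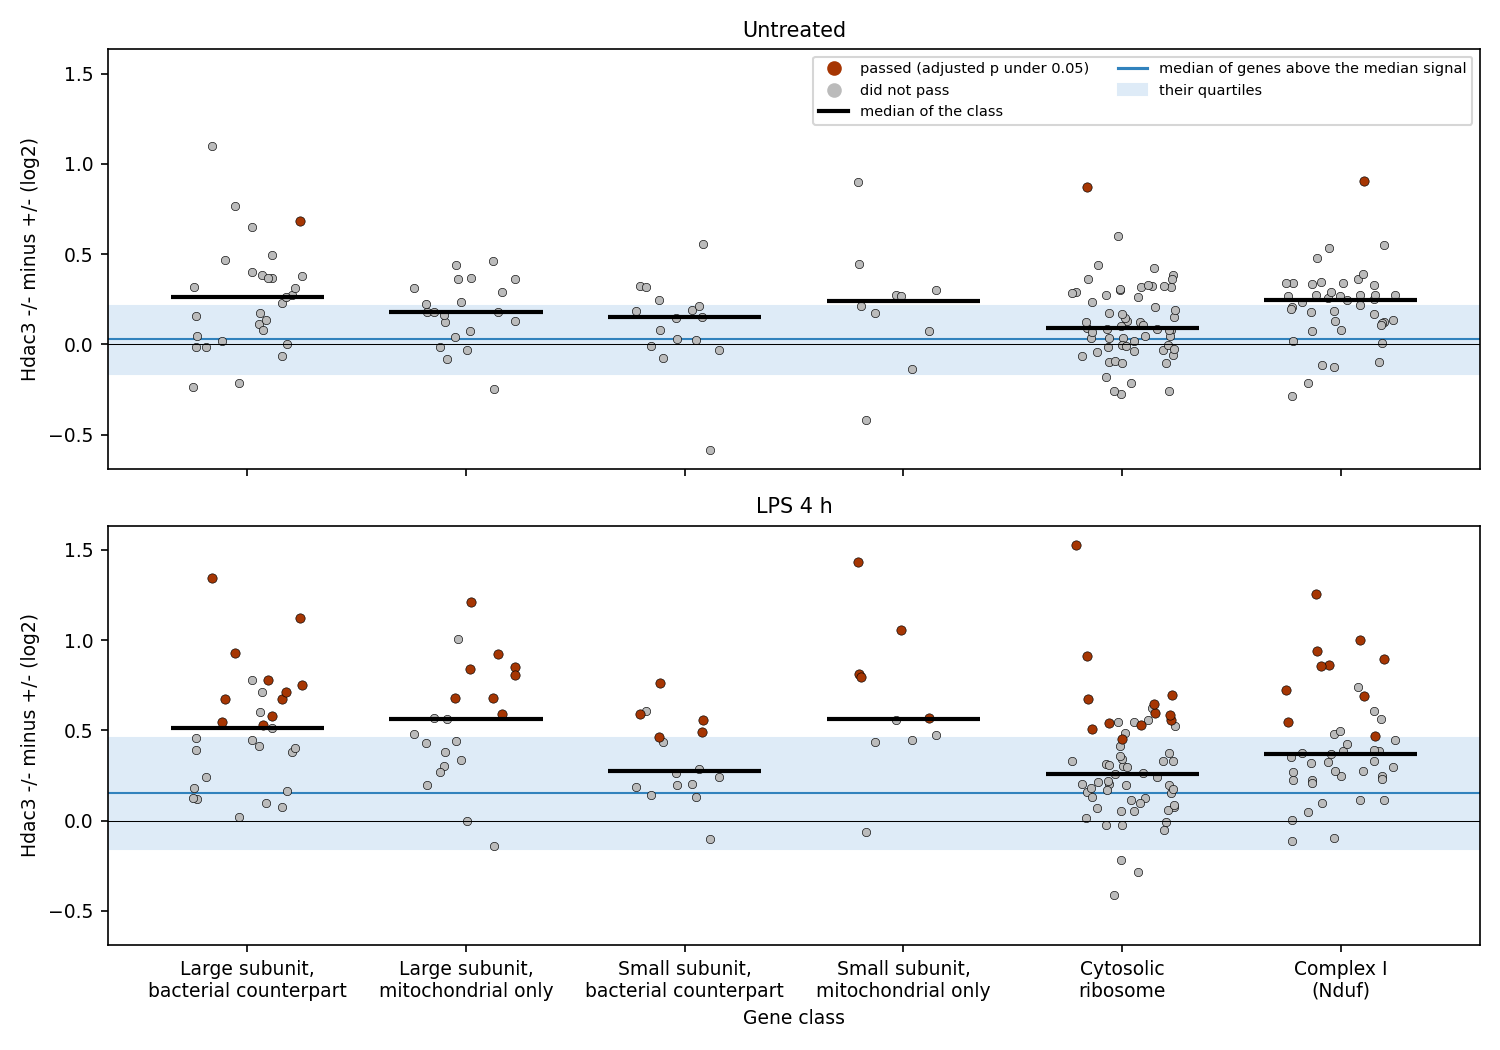
Log2 difference Hdac3 -/- minus +/- for each gene (points, filled in colour where adjusted p was under 0.05), untreated above and after LPS below, for 4 classes of mitochondrial ribosomal proteins and, beside them, cytosolic ribosomal proteins and complex I genes. Thick bars are class medians, the blue line is the median of the genes above the median signal (0.03 untreated, 0.15 after LPS) and the band their quartiles. Mrps36 belongs to no class and is not drawn. Mrps18a and Mrps18b, relatives of bacterial bS18, are drawn in the classes of mitochondria alone. After LPS all 6 class medians (0.26 to 0.56) lie above the blue line.

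The next comparison was LPS against no treatment in Hdac3 +/- cells. Of the members 14 fell and 2 rose. Over all genes 15.5% fell and 9.59% rose, and of the genes above the median signal, where all members lie, 28.3% fell and 11.7% rose. The members' share of lowered genes, 18.2%, was thus near that of all genes and below that of the brighter genes. The groups did not overlap in 19 members that were lower and 3 that were higher with LPS, or 24.7% and 3.90% of the members, against 18.6% and 18.1% of all genes and 33.7% and 15.0% of those above the median signal. The median over members was -0.28, against 0.08 over all genes and -0.21 over the genes above the median signal. The split of 2 raised and 14 lowered became 4 and 9 after quantile normalization, 4 and 5 after cyclic loess and 6 and 6 with equal interquartile ranges, where the median was -0.0545. Of all genes 12.7%, 10.7% and 11.7% fell in these 3 settings, and of the members 11.7%, 6.49% and 7.79% did. Without both +/- LPS 2 and 3 only the male array was left in that group, so no split is given for that setting. Leaving out +/- LPS 1, the male array, gave 29 lowered members (37.7%, against 17.0% of all genes), and leaving out +/- LPS 3 gave 7 (9.09% against 11.3%). Leaving out +/- untreated 1 or 3 or +/- LPS 2 gave 8, 9 and 9 (10.4%, 11.7% and 11.7%, against 13.2%, 11.6% and 12.1%). Without both male arrays 17 fell (22.1% against 14.9%) and 2 rose.

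Mrpl49 fell in every alternative run. Its signals went from 8.27, 8.10 and 8.45 to 7.35, 6.75 and 7.29, without overlap, a difference of -1.14 ± 0.196 (limma, adjusted p = 0.000771). Mrpl51 went from 9.08, 8.98 and 9.46 to 8.59, 8.13 and 7.79, a difference of -1.01 ± 0.207 (adjusted p = 0.00279), and its second probe set gave -0.71. Mrps31 went from 6.66, 6.52 and 6.92 to the LPS values given above, a difference of -0.66 ± 0.149 (adjusted p = 0.00503). The calls of Mrpl51 and Mrps31 were lost in 1 alternative each, without both +/- LPS 2 and 3. Only the male array was then left in that group, and the differences were -0.59 and -0.43.

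Mrpl18 (uL18m, a protein of the central protuberance of the large subunit) went from 9.98, 9.27 and 9.62 to 8.91, 8.69 and 8.57. The lowest untreated array was above the highest LPS-treated one, and the difference was -0.90 ± 0.194 (limma, adjusted p = 0.00387). Mrps6 (bS6m) went from 8.21, 9.20 and 8.09 to 7.87, 7.66 and 7.02, a difference of -0.98 ± 0.277 (adjusted p = 0.0190), with untreated array 2 standing high. Without that array or +/- LPS 3 it did not pass (-0.63 and -0.74). The other lowered members were Mrps35, Mrpl41, Mrpl2, Mrps34, Mrps26, Mrpl40, Mrpl57, Mrps15 and Mrpl42. In Mrpl40 and Mrpl42 the groups overlapped. By class, 2 of 29 large subunit members listed with a bacterial counterpart fell (6.90%). Of those listed as found in mitochondria alone 6 of 21 fell (28.6%). In the small subunit 2 of 16 (12.5%) and 4 of 10 (40%) fell, in the same order. Of all genes 15.5% fell, and of those above the median signal 28.3%.

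In Hdac3 -/- cells LPS raised 2 members and lowered 0, where 3.69% of all genes rose and 5.18% fell. At an unadjusted p under 0.05, limma gave 6 raised and 3 lowered (7.79% and 3.90%), against 7.99% and 12.1% of all genes and 12.1% and 22.1% of those above the median signal. The raised share was near that of all genes. The median was 0.01, against 0.02 over all genes and -0.08 over genes above the median signal. The groups did not overlap in 10 higher and 4 lower members, against 12.6% and 15.7% of all genes. Mrpl49 gave 8.33, 8.45 and 8.27 untreated and 7.94, 7.62 and 8.35 with LPS, which overlap, a difference of -0.38 (adjusted p = 0.320). Mrps31 gave 7.08, 6.86 and 6.97 and then 6.99, 7.06 and 7.24, a difference of 0.13 (adjusted p = 0.746). Mrps6 and Mrpl41, whose differences were -0.71 and -0.43, came nearest to a fall but did not pass (adjusted p = 0.155 and 0.163). With replicate number as a block within genotype, Mrps6 passed and the count of lowered members was 1. Leaving out the male arrays left these counts at 2 and 0.

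The 2 members that rose with LPS did so in both genotypes and in every alternative run. Mrpl39 (mL39) went from 9.34, 9.06 and 9.18 to 10.02, 9.93 and 9.76 in Hdac3 +/- cells and from 9.48, 9.30 and 9.35 to 10.05, 10.01 and 10.25 in Hdac3 -/- cells. The differences were 0.71 ± 0.131 and 0.72 ± 0.131 (limma, adjusted p = 0.00138 and 0.00289). Mrpl52 (mL52) went from 7.88, 7.81 and 7.93 to 8.80, 8.42 and 8.54, and from 7.80, 8.29 and 8.01 to 8.83, 8.67 and 9.16. Its differences were 0.71 ± 0.165 and 0.85 ± 0.165 (adjusted p = 0.00625 and 0.00470). In both genes the LPS-treated arrays lay above all untreated arrays of their genotype.

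**Figure D4:**
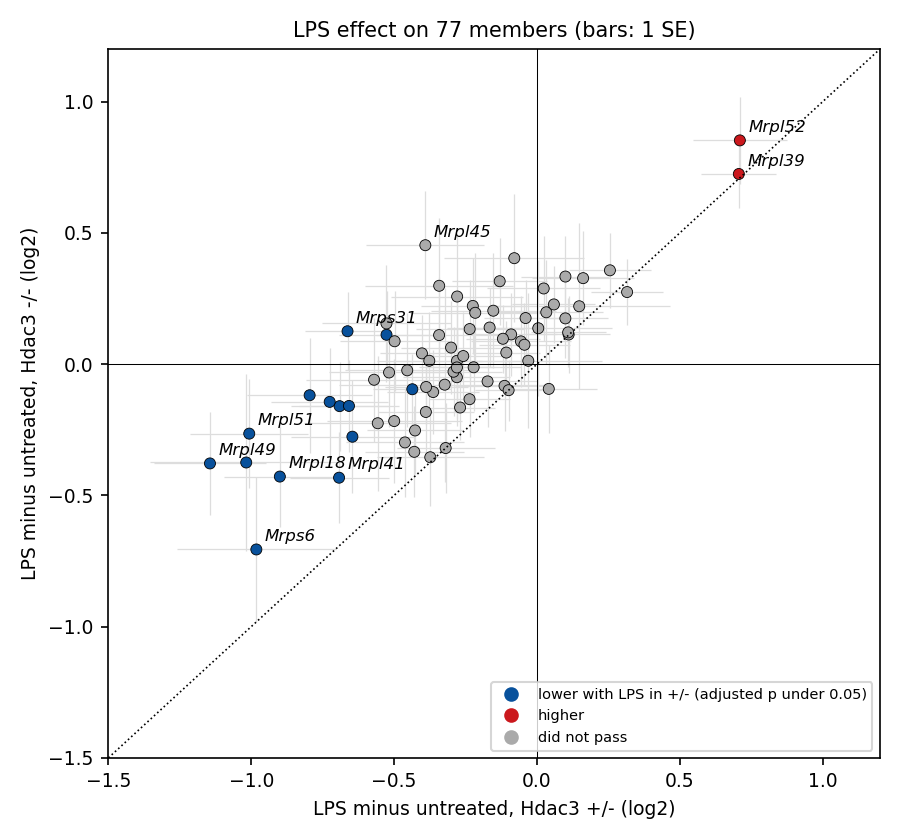
Log2 difference LPS minus untreated of the 77 genes in Hdac3 +/- cells (horizontal) and Hdac3 -/- cells (vertical), with bars of 1 SE. Blue and red mark genes lower (14) and higher (2) in Hdac3 +/- cells. Most points lie above the dotted line of equal response, and Mrpl39 and Mrpl52 lie near it at the upper right.

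The difference between the 2 LPS responses was tested as an interaction. It passed for 0 members in either direction, where 0.306% of all genes were higher and 0.777% lower in this test. At an unadjusted p under 0.05 limma gave 8 higher and 0 lower members (10.4% and 0%), against 5.77% and 5.67% of all genes and 10.2% and 6.23% of those above the median signal. The higher share was near that of the brighter genes. The median was 0.26, against -0.02 over all genes and 0.13 over the genes above the median signal, and 74 of 77 were positive. The smallest adjusted p were 0.101 for Mrps31 (0.79 ± 0.211), 0.231 for Mrpl45 (0.84), 0.259 for Mrpl49 (0.77) and 0.271 for Mrpl57 (0.64). Leaving out the male array +/- LPS 1 brought Mrps31 past the threshold (adjusted p = 0.0465), and leaving out both male arrays brought 0 members past it (median 0.30). The fall of 14 members in Hdac3 +/- cells and of 0 in Hdac3 -/- cells was thus not shown to be a difference between genotypes.

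The 3 members with the lowest mean signal were Mrps11 (5.74), Mrpl42 (5.82) and Mrps12 (6.04), and the 3 with the highest were Mrpl39 (9.64), Mrps18c (9.94) and Mrps15 (9.98). These are probe set signals and give no order of transcript amounts between genes. Mrps11 ranged from 5.51 to 5.85 and Mrps12 from 5.83 to 6.28 over the 12 arrays, and neither changed in any comparison. In all, 42 of the 77 members changed in no comparison.

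The members lie on 17 chromosomes, and 27 share a divergent start, within 1000 bp, with a gene on the opposite strand. Such a neighbour was measured for 25. Of these neighbours 5 were higher and 1 was lower in LPS-treated Hdac3 -/- cells, with a median of 0.27. Over all genes 9.69% were higher and 5.99% lower (median -0.04). Of the genes above the median signal 17.7% were higher and 9.20% lower (median 0.15). Beside the 11 members that were themselves higher, 2 neighbours were higher: Twnk, the mitochondrial DNA helicase, beside Mrpl43 (0.76), and Klc4, a kinesin light chain, beside Mrpl2 (1.06). Ppp1r10, beside Mrps18b, had a difference of -0.32 that did not pass (adjusted p = 0.0740). Beside the 14 other members 3 neighbours were higher, Tmem63b, Sars2 and Ptcd2, and Mitd1 beside Mrpl30 was lower (-1.36). Mrpl46 and Mrps11 face each other, and each counts as the neighbour of the other.

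Of 4 mitoribosomal proteins measured under other symbols, 3 were higher in LPS-treated Hdac3 -/- cells: Ptcd3 (1.16), Chchd1 (0.70) and Gadd45gip1 (0.58). Dap3, a GTP-binding protein of the small subunit, had a difference of 0.21 and did not pass (adjusted p = 0.508). Of 12 mitochondrial translation factors 5 were higher and 0 lower (median 0.59), among them Guf1, a ribosome-bound GTPase (1.09), and Tufm, the elongation factor that brings aminoacyl-tRNA (0.69). In Hdac3 +/- cells LPS lowered 4 of the 12 (33.3%), Guf1 (-1.41), the initiation factor Mtif2 (-1.07), the release factor Mtrf1l (-0.69) and the recycling factor Mrrf (-0.69). In Hdac3 -/- cells it lowered Guf1 (-0.67) and Mtrf1l (-0.57), or 16.7%. For this list and those below, LPS lowered 15.5% of all genes in Hdac3 +/- and 5.18% in Hdac3 -/- cells. Of the genes above the median signal it lowered 28.3% and 9.81%. In LPS-treated Hdac3 -/- cells 9.69% of all genes and 17.7% of those above the median signal were higher.

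Genes for assembling the ribosome and modifying its RNA gave 11 higher and 1 lower of 24 after LPS (45.8% and 4.17%, median 0.47). Fastkd2 (0.85), Noa1 (0.79) and Rbfa (0.73) were higher, and Trmt61b, a methyltransferase of mitochondrial RNA, was lower (-1.23). In the same list LPS lowered 8 (33.3%) and raised 1 in Hdac3 +/- cells, Rbfa falling by the most (-1.48). In Hdac3 -/- cells it lowered 1 (4.17%), Rbfa again (-0.99). The share of 33.3% compares with 28.3% of the genes above the median signal. Mpv17l2, known to act in ribosome assembly, was the 1 gene of the list that was higher in untreated Hdac3 -/- cells (0.58, limma adjusted p = 0.0157).

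Of 16 mitochondrial aminoacyl-tRNA synthetases 4 (25%) were higher in LPS-treated Hdac3 -/- cells and 1 was lower (median 0.41), Yars2 standing at 1.27 and Fars2 at -0.49. LPS lowered 8 of them (50%) in Hdac3 +/- cells, led by Nars2 (-1.04), and 1 (6.25%), Cars2 (-0.44), in Hdac3 -/- cells. Of 15 genes for upkeep and transcription of mitochondrial DNA, 3 (20%) were higher after LPS in Hdac3 -/- cells, Top1mt (0.87), Prorp (0.83) and Twnk (0.76), and 0 lower (median 0.28). LPS lowered 6 of the 15 (40%) in Hdac3 +/- cells, led by the transcription factor Tfb2m (-1.38), and 2 (13.3%) in Hdac3 -/- cells. Of the genes above the median signal, 17.7% were higher in LPS-treated Hdac3 -/- cells. LPS lowered 28.3% of them in Hdac3 +/- and 9.81% in Hdac3 -/- cells.

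Of 12 regulators of mitochondrial biogenesis, Pprc1, a coactivator related to PGC-1 (1.11), and Yy1 (0.63) were higher (16.7%). None was lower in LPS-treated Hdac3 -/- cells (median 0.13), where 17.7% of the genes above the median signal were higher. LPS lowered 5 of the 12 (41.7%) in Hdac3 +/- cells, among them Gabpb2 (-0.79) and Ppargc1b (-0.71), and 0 in Hdac3 -/- cells. Of 15 proliferation genes LPS lowered 5 (33.3%) in Hdac3 +/- cells (median -1.04), led by Rrm2 (-2.03). It lowered 1 (6.67%), Mcm3, in Hdac3 -/- cells (median -0.48), while 0 differed between the genotypes after LPS (median 0.17). Of the genes above the median signal LPS lowered 28.3% in Hdac3 +/- and 9.81% in Hdac3 -/- cells. All 15 had negative LPS differences in both genotypes, whereas the members' median was -0.28 in Hdac3 +/- and 0.01 in Hdac3 -/- cells. The mean of these genes was 9.93, 8.56 and 9.82 untreated and 8.90, 7.71 and 8.56 with LPS in Hdac3 +/- arrays. In Hdac3 -/- arrays it was 9.31, 9.64 and 8.68 untreated and 8.39, 8.64 and 8.66 with LPS. Their part in the members' fall with LPS was not tested.

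Other large sets of related function moved in the same direction after LPS, by smaller medians. Of 61 cytosolic ribosomal protein genes 12 (19.7%) were higher and 0 lower in LPS-treated Hdac3 -/- cells (median 0.26, 54 positive). Of 43 Nduf genes, which encode subunits and assembly factors of respiratory complex I, 10 (23.3%) were higher and 0 lower (median 0.37, 41 positive). Both shares were near the 17.7% of genes above the median signal that were higher, where 9.20% were lower. Of all genes 9.69% were higher and 5.99% lower. The mitochondrial ribosomal proteins, with 29 of 77 and a median of 0.48, were not tested against these sets. In untreated cells the sets had 1 of 61 and 1 of 43 higher (1.64% and 2.33%), with medians of 0.09 and 0.24. Of all genes 1.22% were higher, and of those above the median signal 2.17%.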

How the data were processed

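RNA of 12 macrophage cultures was hybridized to single-colour Affymetrix gene arrays. The deposited log2 values per probe set were normalized and summarised by the authors with affy's RMA, per the submitters' processing notes. Versions, settings and build are not stated there. Of 28193 probe sets, the platform's annotation table gave 1 symbol to 21648, several to 1313 and none to 5232, and those with 1 symbol were kept, the brightest per symbol, leaving 19945 genes. RefSeq tables (GRCm38.p6) gave promoters and gene neighbours.

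A limma 3.58.1 model (R 4.3.3) with a mean per group was fitted to all 12 arrays, with eBayes without a trend, 5 contrasts and Benjamini-Hochberg adjustment over 19945 genes, and was tested on simulated data. The 4 genotype and LPS contrasts share arrays in pairs, so their values are set side by side only. Python 3.11.15, pandas 2.3.3, numpy 2.4.6 and matplotlib 3.10.9 handled tables and figures. The members, gene lists and alternatives were chosen with earlier results of these data known. Members named are, per contrast and direction, up to 10 past the threshold without overlap of the groups, largest change first, the 4 with the smallest p where fewer than 4 passed, the 3 brightest and 3 dimmest, and a fixed few (Mrpl12, Mrps36, Mrps30, Mrps18a, Mrps18b, Mrps18c, Dap3). Of other lists up to 4 changed genes were named; further names complete a count or were chosen after their values were seen.

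Replicate numbers were checked as a pairing by correlating deviations from the group means. Untreated and LPS arrays of a number correlated at 0.243, 0.327 and 0.223 in Hdac3 +/- cells, where number 1 was male in both. In Hdac3 -/- cells they correlated at 0.0898, 0.195 and -0.122. Arrays unlike in both number and genotype correlated at -0.444 to 0.514, so these values cannot show whether the numbers pair arrays. The main model has no term for replicate number. Alternatives varied scaling, filter, probe set, trend, array weights, arrays included, block and sex. Equal scaling, the omission of 2 narrow arrays, the dimmer probe sets and both settings for sex were added after seeing the data.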

Additional observations from a re-analysis of the deposited data

Results flagged for a closer look

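Trmt61b, a methyltransferase of mitochondrial RNA from the list of assembly and modification genes, had LPS responses that differed between the genotypes in the interaction test. LPS moved its signal from 5.39, 5.04 and 5.21 to 6.81, 6.40 and 6.44 in Hdac3 +/- arrays, and from 5.20, 5.35 and 4.97 to 5.32, 5.36 and 5.28 in Hdac3 -/- arrays. The difference of the responses was -1.19 ± 0.214 (limma, adjusted p = 0.0160), and its direction is opposite to that of 74 of the 77 ribosomal protein genes.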

How the results depend on the processing

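In 26 alternatives the median genotype difference after LPS stayed positive (0.30 to 0.58) with 62 to 75 of 77 members positive. Of named members' values 815 kept their side of the threshold and direction, 65 lost the threshold, 20 gained it and 0 reversed.

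Members higher in LPS-treated Hdac3 -/- cells numbered 29, but 19 after quantile normalization, 17 after cyclic loess (median 0.30), 45 with array weights and 17 with equal interquartile ranges (median 0.33). Without +/- LPS 2 and 3, which left only the male array in that group, the median was 0.33. The count was 7 to 35 without 1 array. All 19 and 17 of the first 2 settings were among the 29.

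Lowered members in Hdac3 +/- cells numbered 9 with 4 raised after quantile normalization (median -0.090), 5 with 4 raised after cyclic loess (median -0.049), 23 with array weights, 9 with the 2 groups alone and 6 with 6 raised at equal ranges (median -0.0545). Without +/- LPS 2 and 3, which left only the male array in that group, the median was -0.079. The count of lowered members was 7 to 29 without 1 array. In Hdac3 -/- cells 4 rose after cyclic loess, and 5 fell with array weights, 1 with the 2 groups alone and 1 with the replicate block within genotype. The block changed no other count of members by over 1.5 times: over all 4 groups it gave 28 higher members after LPS and 15 lowered in Hdac3 +/- cells. Within genotype it gave 18 lowered in Hdac3 +/- cells (23.4% of members, against 17.2% of all genes).

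In untreated cells 2 members were higher after quantile normalization, cyclic loess, equal ranges, a filter on genes above the median signal, with the 2 groups alone, a term for Y-linked expression or no male arrays, 8 with array weights, 3 without +/- LPS 2 and 3, and 0 to 2 without 1 array. The interaction median was 0.10 at equal ranges, and its count 0 to 1 without 1 array. The causes were not tested. Precision is limited by having 3 arrays per group. Of the 77 probe sets, 5 (Mrpl27, Mrpl51, Mrpl48, Mrpl41, Mrps33) are numbered among genes of another chromosome, and which transcripts they measure was not tested. For Mrpl27, Mrpl51, Mrpl41 and Mrps33 the dimmer probe set is the one numbered among genes of the gene's own chromosome.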
